A study of Mus musculus with 4 samples.

Results

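A set of 10 genes of the trophoblast programme and of simple epithelia were examined in mouse embryonic stem cells that carry deletions in Drosha and in wild-type embryonic stem cells. They were taken by symbol from the 43629 Ensembl gene identifiers of the deposited count tables, and all 10 were found: the transcription factor genes Tfap2c, Gata2, Gata3, Tead4 and Ascl2, the WNT ligand gene Wnt7b, and the keratin genes Krt7, Krt8, Krt18 and Krt19. The knockout group held 2 poly(A) RNA libraries, KO1, in which the proline-rich stretch of Drosha was deleted, and KO2, in which the arginine/serine-rich (R/S) stretch was deleted, both at passage 7 and made with paired CRISPR/Cas9 cuts. The wild-type group held 2 libraries of the E14 line at passage 33 (WT1) and at passage 42 (WT2), which the labels mark as re-used. All cells were of 129/Ola background and grown in serum with LIF, the cytokine that keeps mouse embryonic stem cells undifferentiated. DROSHA is the nuclear nuclease that releases microRNA precursors. Genotype, passage and the origin of the libraries coincide here and cannot be told apart, and the knockout titles carry a mark, d5, that the labels do not explain. The libraries of a group differ in deletion or in passage, with 1 library of each, so the p-values speak of the spread between these libraries alone.

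The trophoblast is the outer lineage of the blastocyst and the source of the placenta, while embryonic stem cells stand for the inner lineage. TEAD4, the DNA-binding partner of the Hippo pathway coactivator YAP, acts at the start of trophectoderm formation, upstream of CDX2, and GATA3 acts beside it. TFAP2C (AP-2 gamma) and GATA2 serve in trophoblast stem cells and their descendants, and TFAP2C is also made in embryonic stem cells and germ cells. ASCL2 is a basic helix-loop-helix factor of the spongiotrophoblast, encoded by an imprinted gene, and WNT7B is a secreted ligand that the chorion needs to fuse with the allantois. Keratins of simple epithelia form filaments from a type II chain, KRT7 or KRT8, and a type I chain, KRT18 or KRT19, and they are the first intermediate filaments of the trophectoderm.

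Promoter sequences are shown for the 3 keratin genes of chromosome 15, because these genes lie together and were low in the same wild-type library, as described below. Krt8 and Krt18 are neighbours on opposite strands with 23697 bases between their annotated starts, and they are read away from each other. Each line gives 250 bases before to 50 bases after the RefSeq start site on build GRCm38.p6, read along the strand of the gene. Capitals mark the letters GATA on either strand (TATC in reverse), the AP-2 letters GCCNNNGGC and the E-box CAGCTG, and the TEAD letters GGAATG or CATTCC were searched as well.
Krt8 (chr15:102004293-102004592, minus strand): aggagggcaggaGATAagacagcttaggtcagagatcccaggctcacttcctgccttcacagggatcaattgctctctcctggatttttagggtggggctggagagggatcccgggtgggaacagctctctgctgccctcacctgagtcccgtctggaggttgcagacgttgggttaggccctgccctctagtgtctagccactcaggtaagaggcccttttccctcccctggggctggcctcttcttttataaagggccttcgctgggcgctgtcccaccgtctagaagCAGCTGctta
Krt18 (chr15:102027966-102028265, plus strand): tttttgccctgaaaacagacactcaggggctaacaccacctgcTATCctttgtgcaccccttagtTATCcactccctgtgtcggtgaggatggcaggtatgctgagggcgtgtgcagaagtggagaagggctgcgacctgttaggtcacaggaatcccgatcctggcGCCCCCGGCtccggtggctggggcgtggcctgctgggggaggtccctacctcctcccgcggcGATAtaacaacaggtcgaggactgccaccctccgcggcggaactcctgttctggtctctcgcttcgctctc
Krt7 (chr15:101412153-101412452, plus strand): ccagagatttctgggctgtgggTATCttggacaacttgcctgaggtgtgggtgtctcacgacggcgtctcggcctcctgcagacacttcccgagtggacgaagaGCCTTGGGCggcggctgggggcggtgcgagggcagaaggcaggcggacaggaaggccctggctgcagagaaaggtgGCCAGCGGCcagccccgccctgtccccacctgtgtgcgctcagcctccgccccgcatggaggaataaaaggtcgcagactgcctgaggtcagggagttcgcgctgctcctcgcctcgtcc

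The Krt18 window held the GATA letters 3 times, first bases at -207, -185 and -21 from the start site, and the AP-2 letters once, at -83. The Krt7 window held the AP-2 letters at -146 and at -70 and GATA at -228. The Krt8 window held GATA at -238 and the E-box at 41 bases past the start, and no AP-2 letters. The TEAD letters were in none of these 3 windows. Among all 32851 RefSeq promoter windows of the same length, 57.9% held GATA, 16.6% the AP-2 letters, 16.3% the E-box and 14.7% the TEAD letters, so single matches are common. The windows had 58.0% (Krt8), 61.3% (Krt18) and 66.3% (Krt7) of G and C, against a median of 52.7% over all windows. The promoter windows of Ascl2, Gata2 and Gata3 were also matched, and that of Ascl2 held none of the 4 motifs. That of Gata3 held the AP-2 letters 3 times, GATA at 38 and the E-box at -1. The first of the 2 windows of Gata2 held none of the 4 motifs. The second held the AP-2 letters at -222, the TEAD letters at -120 and the E-box at 18. No window was matched for Tfap2c, Krt19, Tead4 and Wnt7b.

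Some microRNAs of the miR-290 family and of the miR-302 family, made through DROSHA and prominent in mouse embryonic stem cells, carry the seed AAGUGCU (bases 2 to 8), among them miR-294-3p and miR-302b-3p, while others of these families, such as miR-293-3p and miR-302c-3p, differ in these bases. The match to AAGUGCU was searched in the longest annotated 3' UTR of each gene in GENCODE M21. Of the 10 genes, Wnt7b was the one with a 7-base match, AGCACTT, at base 1914 of an annotated UTR of 1952 bases. The same 7 bases occurred in 16.9% of the 14143 tested genes with an annotated 3' UTR. The site and a mature microRNA of each family with this seed (RefSeq, GRCm38.p6) are printed with the match and the seed in capitals.
Wnt7b site: ctctggaggggAGCACTTagccccaataa
mmu-miR-294-3p: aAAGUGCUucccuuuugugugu
mmu-miR-302b-3p: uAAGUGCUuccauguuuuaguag

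The libraries held between 29264632 and 42322129 counts, so that 3 counts were worth 0.0709 to 0.102 CPM, the counts scaled to a common library total, before TMM scaling, which adjusts library totals to each other. Drosha was at 158 CPM in both knockout libraries, against 364 and 357 CPM in WT1 and WT2 (log2 fold change -1.19). The knockout libraries were nearly alike, with a chi-square per degree of freedom of 2.26 between KO1 and KO2, against 167 between WT1 and WT2, taken over the genes whose counts in a pair reached 50. Between the knockouts and WT1 it was 167 and 180, and between the knockouts and WT2 322 and 346. With edgeR's quasi-likelihood test, 927 of 17022 tested genes passed an adjusted p of 0.05 (Benjamini-Hochberg), 5.45% of all, and 3.51% passed as higher in the knockouts. No adjusted p was below 0.0482, which puts every call close to the threshold. The fold change followed base composition: its median was -0.65 on the log2 scale in the tenth of tested genes with the lowest transcript GC content and 1.12 in the tenth with the highest.

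Markers of the labelled cell type were present: all 13 markers of embryonic stem cells had counts in every library and summed to 7486 and 7542 CPM in KO1 and KO2, against 6735 and 8256 CPM in WT1 and WT2. The 5 markers of trophectoderm and trophoblast stem cells summed to 17.5 and 17.9 CPM in the knockouts, against 26.7 and 20.1 CPM in the wild types. Most of that was Plet1 and Eomes, whereas Cdx2, the defining factor of the lineage, had 4 and 10 counts in KO1 and KO2 and 5 and 1 counts in WT1 and WT2. In CPM these were 0.130 and 0.225 against 0.125 and 0.0278, with both knockouts above both wild types, unlike the sum. Cdx2 was too low to be tested. Elf5, which marks trophoblast stem cells, had 1 count in each knockout library, against 28 and 2 counts in WT1 and WT2. Hand1 had a fitted value above 0, unlike the sum (log2 fold change 0.92 ± 0.90, edgeR adjusted p = 0.485). It had 1.04 and 0.721 CPM in KO1 and KO2, against 0.802 and 0.111 CPM in WT1 and WT2. In bulk RNA, a smaller share of cells that express a gene and less RNA per cell cannot be told apart.

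Of the 10 genes, 9 passed the filter on low counts, and 1 of these 9, Tfap2c, was called higher in the knockouts, against the 3.51% of all tested genes. None of the 9 was called lower, against 1.94% of all tested genes. The median log2 fold change of the 9 was 0.90, against -0.02 over all tested genes, and 8 of the 9 fitted values were above 0. These values keep the trends with GC and length. With the trends removed, they were 1.29 for Krt7, 0.83 for Tfap2c, 0.55 for Krt19, 0.11 for Gata2 and 0.03 for Krt18. They were 0.01 for Wnt7b, -0.18 for Krt8, -0.41 for Ascl2 and -1.07 for Tead4. Both knockout libraries lay above both wild-type libraries for 5 of the 9, namely Tfap2c, Gata2, Krt7, Krt18 and Krt19, where 36.5% of all tested genes did so. KO1 and KO2 differed by at least 2-fold for 0 of the 9 and for 1.08% of all tested genes. The 9 genes that passed had transcript GC contents of 52.3% to 59.6%, each above the median of 49.9% over tested genes, and values after removal of the trends that the libraries showed with GC and length are given beside the fold changes below.

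**Figure D1:**
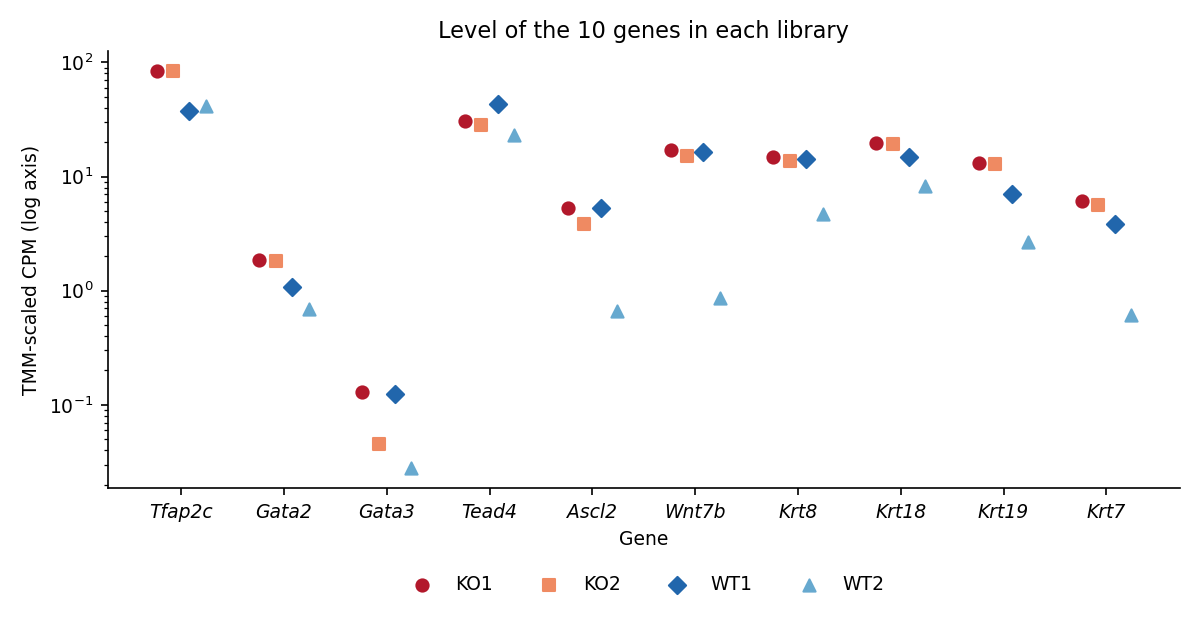
TMM-scaled CPM of the 10 genes (log axis) in the 2 knockout libraries and the 2 wild-type libraries, 1 point per library. For the 9 tested genes KO1 and KO2 lie less than 2-fold apart, and WT2 is the lowest point for all of them but Tfap2c; Gata3 rests on 1 to 5 counts per library.

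Tfap2c (ENSMUSG00000028640, chromosome 2, 172549593 to 172558622 on mm10, plus strand) encodes the AP-2 gamma factor. It had 84.7 and 83.4 CPM in KO1 and KO2, against 37.8 and 41.4 CPM in WT1 and WT2. The groups did not overlap, and the libraries of each group were close together. The knockout mean of 84.0 ± 0.928 CPM stood against a wild-type mean of 39.6 ± 2.53 CPM (SD, n = 2 each). The fitted log2 difference was 1.08 ± 0.13 (SE, edgeR adjusted p = 0.0482). It was the 1 gene of the 9 for which both knockout libraries stood at least 2-fold above WT1, which 9.88% of all tested genes did. Its 4 pairwise log2 ratios, each knockout library over each wild-type library, ran from 1.01 to 1.16. With GC and length trends removed they ran from 0.71 to 0.94. After removal of GC and length trends from the libraries, the fold change was 0.83 ± 0.12 and the call was lost (edgeR adjusted p = 0.0939). That fit called 0 of all 17022 tested genes. Without KO1 it was 1.08 (adjusted p = 0.401) and without KO2 1.10 (adjusted p = 0.332), in edgeR fits that take their spread from the wild-type pair.

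Gata2 (ENSMUSG00000015053, chromosome 6, 88193891 to 88207032, plus strand), a zinc finger factor of trophoblast and blood, was low in every library. It had 1.85 and 1.80 CPM in KO1 and KO2, against 1.08 and 0.694 CPM in WT1 and WT2. The groups did not overlap, but the test was not passed (log2 fold change 1.04 ± 0.35, edgeR adjusted p = 0.117). Once the same trends were taken out, the value was 0.11 ± 0.26. The counts behind it were 57 and 80 in the knockouts, against 43 and 25 in the wild types.

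Gata3 (ENSMUSG00000015619, chromosome 2, 9857078 to 9890034, minus strand), the GATA factor of early trophectoderm, had 4 and 2 counts in KO1 and KO2 and 5 and 1 counts in WT1 and WT2. It did not pass the filter on low counts and was not tested. Its level was 0.13 CPM in KO1, with an exact Poisson interval of 0.0353 to 0.332 CPM at 95% (counting error only), and 0.0278 CPM in WT2, with an interval of 0.000703 to 0.155 CPM. The intervals overlapped. Summed counts were 6 in the knockouts and 6 in the wild types, a ratio of 1.01 for KO over WT. Its exact binomial interval was 0.27 to 3.78 at 95% for counting error only. A change within that range could not be detected at this depth.

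Tead4 (ENSMUSG00000030353, chromosome 6, 128224288 to 128300823, minus strand) was the 1 tested gene of the 10 with a fitted value below 0. It had 31.0 and 28.2 CPM in KO1 and KO2, against 43.4 and 22.9 CPM in WT1 and WT2, so the knockouts stood between the wild types. The log2 fold change of -0.17 ± 0.34 did not pass (edgeR adjusted p = 0.746). After removal of the trends of GC and length it was -1.07 ± 0.21 (edgeR adjusted p = 0.103), and it turned to 0.36 without WT1.

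Ascl2 (ENSMUSG00000009248, chromosome 7, 142966829 to 142969264, minus strand), the spongiotrophoblast factor, had 5.28 and 3.85 CPM in KO1 and KO2, against 5.31 and 0.667 CPM in WT1 and WT2. In CPM, the knockouts and WT1 lay together and WT2 stood apart, with 24 counts against 212 in WT1. The group means of 4.57 ± 1.01 and 2.99 ± 3.28 CPM for KO and WT (SD, n = 2 each) were closer than the spread of the wild types, and the log2 fold change of 0.61 ± 0.96 did not pass (edgeR adjusted p = 0.670). Without WT2 it turned to -0.24, and without WT1 it was 2.74. After removal of GC and length trends it was -0.41 ± 0.83. The log2 ratios over WT1 were then -0.97 for KO1 and -1.37 for KO2, and over WT2 1.45 and 1.05.

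Wnt7b (ENSMUSG00000022382, chromosome 15, 85535437 to 85582473, minus strand), the WNT ligand gene, showed the widest gap among the libraries. It had 17.2 and 15.3 CPM in KO1 and KO2, against 16.5 and 0.861 CPM in WT1 and WT2. In counts these were 531 and 678 in the knockouts, against 657 and 31 in the wild types. Knockout cells and E14 at passage 33 therefore had nearly the same CPM before any removal of trends, and E14 at passage 42 had little of it. The log2 ratio over WT1 was 0.06 for KO1 and -0.11 for KO2, and over WT2 it was 4.24 for KO1 and 4.07 for KO2. The fitted log2 fold change of 0.90 ± 1.25 did not pass (edgeR adjusted p = 0.622), and it was -0.02 without WT2 and 4.22 without WT1. After removal of GC and length trends it was 0.01 ± 1.12. The log2 ratios over WT1 were then -0.81 for KO1 and -0.92 for KO2, and over WT2 2.83 and 2.73. An antisense gene, AU022754, overlaps Wnt7b and had 0 to 7 counts in the 4 libraries.

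Krt8 (ENSMUSG00000049382, chromosome 15, 101996698 to 102004482, minus strand), the main type II keratin of simple epithelia, had 14.8 and 13.6 CPM in KO1 and KO2, against 14.1 and 4.69 CPM in WT1 and WT2. Its partner Krt18 (ENSMUSG00000023043, chromosome 15, 102028180 to 102032027, plus strand) had 19.5 and 19.1 CPM in KO1 and KO2, against 14.7 and 8.19 CPM in WT1 and WT2. For Krt8 the knockouts lay on both sides of WT1, whereas for Krt18 both knockouts lay above both wild types. Neither passed, with log2 fold changes of 0.59 ± 0.55 for Krt8 (edgeR adjusted p = 0.467) and 0.75 ± 0.32 for Krt18 (adjusted p = 0.173). After the same removal of trends these were -0.18 ± 0.45 and 0.03 ± 0.22. The log2 ratios of KO1 and KO2 over WT1 were then -0.63 and -0.71 for Krt8 and -0.21 and -0.22 for Krt18. Over WT2 they were 0.61 and 0.53 for Krt8 and 0.32 and 0.32 for Krt18. Counts of Krt8 are uncertain, because 26.9% of the 50-base stretches of its longest transcript also occur in the pseudogene Krt8-ps (counts of it not analysed here), against 0.7% for Krt18 and 0.0% for Krt7 and Krt19.

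Krt19 (ENSMUSG00000020911, chromosome 11, 100140810 to 100148665, minus strand), a type I keratin, had 13.0 and 12.8 CPM in KO1 and KO2, against 7.09 and 2.69 CPM in WT1 and WT2. The groups did not overlap, and the knockout mean of 12.9 ± 0.193 CPM stood against 4.89 ± 3.11 CPM in the wild types (SD, n = 2 each). The log2 fold change of 1.40 ± 0.50 did not pass in edgeR (adjusted p = 0.130), passed in DESeq2 (1.38 ± 0.47, adjusted p = 0.0207), and came to 0.55 ± 0.38 in edgeR after removal of the trends. Krt7 (ENSMUSG00000023039, chromosome 15, 101411043 to 101430313, plus strand), a type II keratin of glandular epithelia and trophoblast, had 6.16 and 5.61 CPM in KO1 and KO2, against 3.81 and 0.611 CPM in WT1 and WT2. The groups did not overlap here either, and WT2 was again the low library. Krt7 had the largest fitted value of the 9, beside Krt19, with a log2 fold change of 1.41 ± 0.86 that did not pass (edgeR adjusted p = 0.289). Without the trends of GC and length it was 1.29 ± 0.81. Summed over the 4 keratins, the level was 53.5 and 51.1 CPM in KO1 and KO2, against 39.7 and 16.2 CPM in WT1 and WT2.

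**Figure D2:**
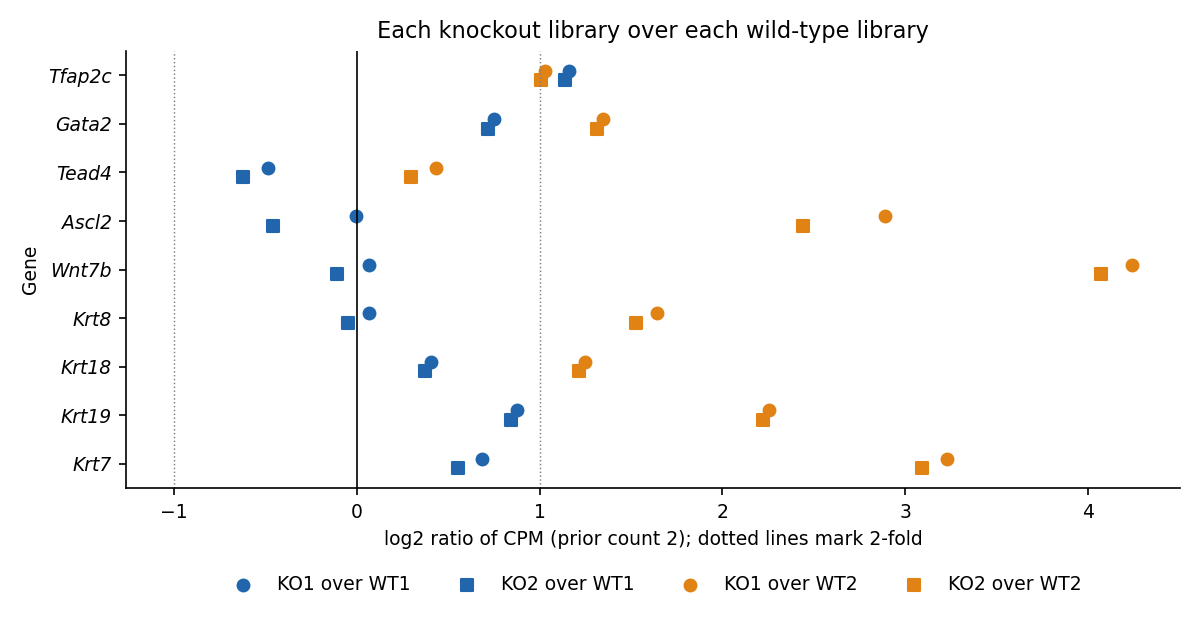
Log2 ratios of CPM (prior count 2) of each knockout library over WT1 (blue) and over WT2 (orange) for the 9 tested genes, 1 point per pair of libraries, with dotted lines at 2-fold. Ratios over WT2 reach 4.24 for Wnt7b, whereas ratios over WT1 lie between -0.62 and 1.16.

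The size of most differences depended on which wild-type library the knockouts were set against. Against WT2, both knockout libraries stood at least 2-fold higher for 8 of the 9 genes, the exception being Tead4, where 20.6% of all tested genes did so. With GC and length trends removed, this stayed so for Wnt7b, Krt7, Ascl2 and Krt19, and the share of all tested genes was not counted. The log2 ratios of KO1 and KO2 over WT2 were then 0.72 and 0.71 for Tfap2c and 0.61 and 0.53 for Krt8. For Krt18 both were 0.32, for Gata2 they were 0.11 and 0.13, and for Tead4 -0.76 and -0.84. Against WT1 and before such removal, Tfap2c was the 1 gene of the 9 with both knockout libraries at least 2-fold higher. Fits that leave out a wild-type library take their spread from the knockout pair and assume that the lone wild-type library varies as little, and they called most genes. Without WT1 all 9 passed, as did 77.7% of all genes tested in that fit, and without WT2 6 of the 9 passed, against 68% of all. With such a background the calls say little of these genes, and the fitted values are given as sizes. The log2 fold changes without WT2 were 1.16 for Tfap2c, 0.87 for Krt19, 0.76 for Gata2, 0.63 for Krt7, 0.40 for Krt18, 0.01 for Krt8 and -0.55 for Tead4. These values keep the GC and length trends. With the trends removed, KO1 and KO2 over WT1 stood at 0.94 and 0.94 for Tfap2c and 0.60 and 0.48 for Krt7. The log2 ratios were 0.13 and 0.14 for Krt19 and 0.01 and 0.04 for Gata2. They were -0.21 and -0.22 for Krt18, -0.63 and -0.71 for Krt8, and -1.256 and -1.335 for Tead4.

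**Figure D3:**
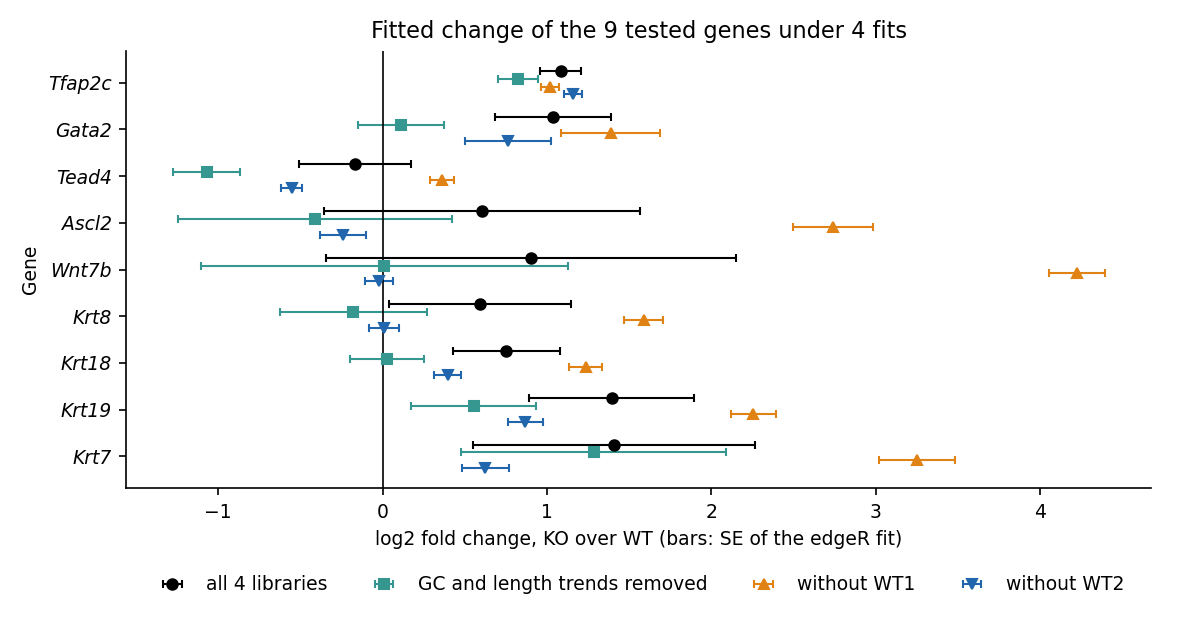
Fitted log2 fold change of KO over WT with its SE for the 9 tested genes, from all 4 libraries, without WT1, without WT2, and after removal of GC and length trends. Tfap2c stays between 0.83 and 1.16 in these 4 fits, while Wnt7b runs from -0.02 to 4.22.

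Between the wild-type libraries themselves, E14 at passage 42 was lower than E14 at passage 33 for 8 of the 9 genes, the exception being Tfap2c, with a log2 ratio of WT2 over WT1 of 0.13. With 1 library on each side this is a description with no test. WT2 was at least 2-fold lower for 5 of the 9, where 12.9% of all tested genes were. These 5 were Wnt7b (-4.18), Ascl2 (-2.90), Krt7 (-2.54), Krt8 (-1.58) and Krt19 (-1.38), all as log2 ratios. Tead4 (-0.92), Krt18 (-0.84) and Gata2 (-0.60) were lower by less than 2-fold. The median of the 9 was -1.38, against -0.01 over all tested genes.

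Base composition and chromosome moved with this difference. In the tenth of tested genes with the highest GC content the median log2 ratio of WT2 over WT1 was -0.53, and in the tenth with the lowest it was 0.30. The same 5 genes remained after removal of GC and length trends; they were still at least 2-fold lower in WT2, where 10.8% of all tested genes were, at -3.64 (Wnt7b), -2.42 (Ascl2), -2.35 (Krt7), -1.24 (Krt8) and -1.01 (Krt19). Chromosome 15, which holds Wnt7b, Krt7, Krt8 and Krt18, had a median of -0.61 over its 666 tested genes for the log2 ratio of WT2 over WT1, and of 0.51 for the log2 fold change of KO over WT. After subtraction of the chromosome median, the log2 ratio of WT2 over WT1 was -3.56 for Wnt7b, -1.93 for Krt7, -0.96 for Krt8 and -0.23 for Krt18, and the fold change of KO over WT was 0.39, 0.89, 0.08 and 0.24 in the same order of genes. For Ascl2 on chromosome 7 and Krt19 on chromosome 11 the ratio of WT2 over WT1 less its chromosome median was -2.67 and -1.36, so Wnt7b, Krt7, Ascl2 and Krt19 stood below -1 under either correction. The part of base composition and of chromosome in these differences was not tested.

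**Figure D4:**
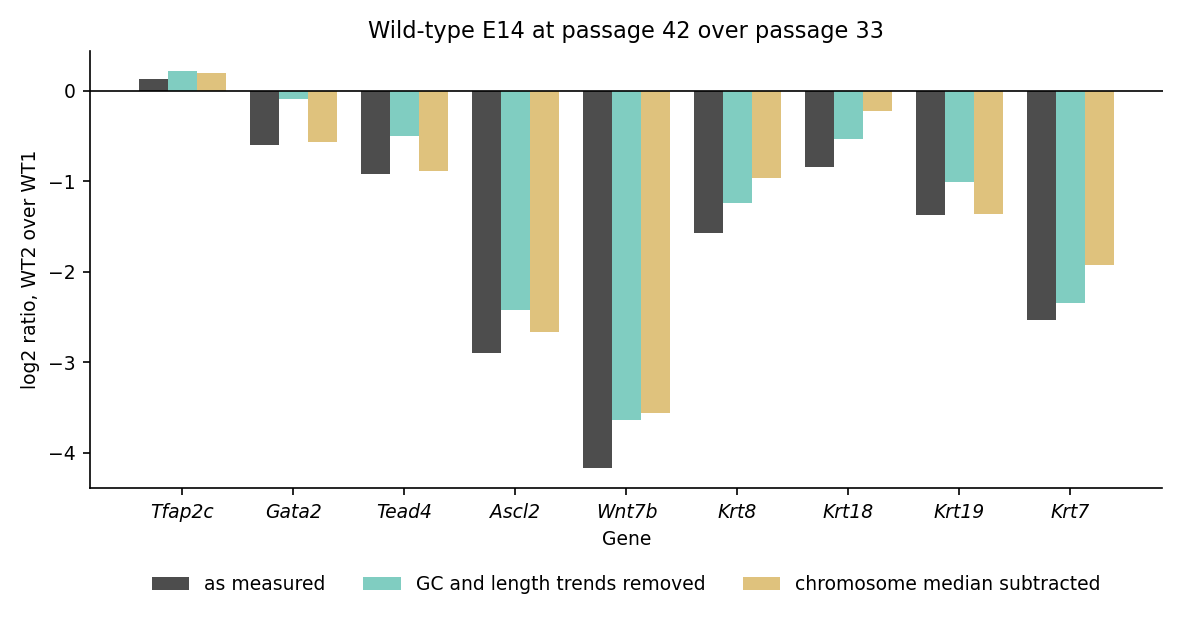
Log2 ratio of WT2 (passage 42) over WT1 (passage 33) for the 9 tested genes as measured, with GC and length trends removed, and with the median of the gene's own chromosome subtracted. Wnt7b is the lowest under each, at -4.18, -3.64 and -3.56, and Tfap2c is above 0 in all 3.

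Markers of other cells also moved between the libraries. The 8 endoderm markers summed to 15.9 and 14.7 CPM in KO1 and KO2, against 60.6 and 174 CPM in WT1 and WT2, none was at 0 in any library, and 8 of 8 were higher in WT2 than in WT1. Much of the wild-type sum was Cubn, at 29.9 and 72.1 CPM in WT1 and WT2, and Dab2, at 17.7 and 66.1 CPM. Amn hardly differed, at 1.04 and 1.31 CPM in KO1 and KO2, against 1.05 and 1.11 CPM in WT1 and WT2. A wider list of 24 endoderm genes summed to 1297 and 1277 CPM in the knockouts, against 1539 and 1806 CPM in WT1 and WT2. Of the 9 tested genes, 8 were lowest in WT2, the library with the highest sums of endoderm markers. Markers of fibroblasts and feeder cells, 9 in number, summed to 50.1 and 46.4 CPM in the knockouts, against 34.8 and 26.8 CPM in WT1 and WT2, with 1 marker at 0 in each knockout library and 4 and 5 at 0 in WT1 and WT2. Their part in the levels of the keratins and trophoblast factors was not tested.

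Levels of different genes were compared per length, as RPKM, the TMM-scaled CPM divided by the annotated exon length in kilobases. In the knockouts Tfap2c came first with a mean of 22.8 RPKM, followed by Krt18 (13.4), Tead4 (8.22), Krt8 (7.25), Krt19 (6.95), Wnt7b (3.32), Ascl2 (2.82), Krt7 (0.835), Gata2 (0.338) and Gata3 (0.0220). This order was the same in KO1 and KO2. In WT1 Tead4 stood first with 12.1 RPKM, ahead of Tfap2c (10.28) and Krt18 (10.25), and the other 7 genes kept the order of the knockouts. In WT2 Tfap2c (11.3 RPKM), Tead4 (6.37) and Krt18 (5.70) led, Wnt7b, at 0.176 RPKM, stood behind Ascl2, at 0.411 RPKM, and Krt7, at 0.0867 RPKM, behind Gata2, at 0.129 RPKM. Some neighbours in this order overlapped in the knockout libraries: Krt8 at 7.55 and 6.95 RPKM in KO1 and KO2 with Krt19 at 7.02 and 6.88 RPKM, and Wnt7b at 3.51 and 3.12 RPKM with Ascl2 at 3.26 and 2.37 RPKM. Krt8 stood at 0.555 of Krt18 per length in KO1 and 0.523 in KO2, against 0.703 in WT1 and 0.420 in WT2, so both knockout libraries lay between the wild types.

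Related genes were counted over 11 lists of trophoblast, Hippo, keratin, WNT and marker genes, and each list gene named as risen or fallen had an edgeR adjusted p of 0.0482. Of all tested genes, 3.51% were called higher and 1.94% lower. These calls keep the GC and length trends. With the trends removed, edgeR called 0 list genes and 0 of all 17022 tested genes. An unadjusted edgeR p under 0.05 was reached by 6320 of 17022, and DESeq2 called 3757 of 16520. Of 15 tested regulators of trophectoderm and trophoblast stem cells, 1 rose and 0 fell, with a median log2 fold change of -0.07. The gene that rose was Fgfr2, the receptor for the FGF4 signal that maintains trophoblast stem cells, with 28.0 and 26.3 CPM in KO1 and KO2, against 11.5 and 8.72 CPM in WT1 and WT2 (log2 fold change 1.42 ± 0.20, edgeR adjusted p = 0.0482). Of 15 tested genes of differentiated trophoblast 1 rose and 0 fell (median 0.58), and 7 of the list's 24 had no count in any library. This list summed to 501 and 515 CPM in KO1 and KO2, against 1034 and 409 CPM in WT1 and WT2. Its median log2 ratio of WT2 over WT1 was -0.65, with 7 of the 15 at least 2-fold lower in WT2, against 12.9% of all tested genes. The riser was Mdfi, a regulator of basic helix-loop-helix factors. It had 15.1 and 15.7 CPM in the knockouts, against 5.11 and 3.47 CPM in the wild types (1.84 ± 0.26). Mdfi lay among the 1691 tested genes with the highest GC content, 57.8% to 78.6%, whose median log2 fold change was 1.12. Fgfr2 lay among those with 49.9% to 51.8%, whose median was 0.002. Of 22 tested TEAD and Hippo genes 0 rose and 1 fell (median -0.18), namely the Hippo kinase gene Stk4, at 89.6 and 86.6 CPM in the knockouts, against 152 and 173 CPM in the wild types (-0.88 ± 0.13). Among 7 tested relatives in the AP-2 and GATA families 0 passed in edgeR (median 0.16; 1 at an unadjusted p under 0.05 and 1 in DESeq2), and the smallest p was that of Gata6, an endoderm factor (-2.64 ± 0.56, adjusted p = 0.0614).

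Of 11 tested keratins outside the 4 examined here, 1 rose and 0 fell, with a median of 1.79. That gene was Krt12, a type I keratin of cornea, with 37 and 60 counts in KO1 and KO2, against 2 and 1 counts in WT1 and WT2, a ratio of 32.6 with an exact binomial interval of 10.8 to 161 at 95% for counting error only. The median log2 ratio of WT2 over WT1 of these 11 keratins was -1.44. Of them, 7 were at least 2-fold lower in WT2, against 12.9% of all tested genes. Of 27 tested keratin partners, desmosome and epithelial genes, 0 rose and 2 fell (median -0.01). These were Dsg2, a desmosomal cadherin, and Klf5, a factor of trophectoderm and stem cells. Dsg2 had 43.8 and 43.9 CPM in the knockouts, against 95.2 and 118 CPM in the wild types. Klf5 had 82.9 and 76.9 CPM in the knockouts, against 159 and 155 CPM in the wild types. Both, like Stk4, lay among the tested genes with 46.2% to 48.1% GC, whose median log2 fold change was -0.34. Of 17 tested receptors and secretion factors for WNT7B, 1 rose and 1 fell, with a median of 0.30. The receptor gene Fzd2 rose, with 6.55 and 6.56 CPM in the knockouts, against 0.751 and 0.833 CPM in the wild types (3.04 ± 0.25). The co-receptor gene Lrp6 fell, with 67.9 and 69.4 CPM in the knockouts, against 147 and 128 CPM in the wild types. Fzd2 lay among the tested genes with 55.5% to 57.8% GC, whose median log2 fold change was 0.70. Lrp6 lay among those with 44.1% to 46.2%, whose median was -0.41. Around Ascl2 and in its family 0 of 14 tested genes passed in edgeR (median 0.66), with 6 at an unadjusted p under 0.05 and 5 called in DESeq2. Over all genes these counts were 6320 of 17022 and 3757 of 16520. The median log2 ratio of WT2 over WT1 was -1.14 there, with 8 of the 14 at least 2-fold lower in WT2. The smallest edgeR p was that of Phlda2, an imprinted growth restrainer of the placenta (2.64 ± 0.48, edgeR adjusted p = 0.0540). It had 59.7 and 57.4 CPM in the knockouts, against 13.4 and 5.36 CPM in the wild types.

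The marker lists gave 0 risen and 4 fallen of 21 tested endoderm genes (median -1.53; 1.94% of all tested genes fell), led by Cubn (-4.10 ± 0.52) and Lama1 (-2.09 ± 0.17). Of 11 tested fibroblast genes 0 passed in edgeR, with 4 at an unadjusted p under 0.05 and 3 called in DESeq2. Over all genes these counts were 6320 of 17022 and 3757 of 16520. The median of the 11 was 0.86, the same with the gene absent from both wild types set to 3 counts per library. Dcn had the smallest p (edgeR adjusted p = 0.0639) and no count in WT1 or WT2. Of 13 embryonic stem cell genes 2 rose and 0 fell (median -0.05), namely Utf1 (2.11 ± 0.31) and Klf2 (1.41 ± 0.14). Both lie in the tenth of tested genes with the highest GC content, where the median log2 fold change was 1.12. Both knockouts lay above both wild types for 5 of the 13, against 36.5% of all tested genes. They lay below for 6, for which the share of all tested genes was not counted. Among those 6 was Nanog (-0.45 ± 0.14, edgeR adjusted p = 0.0990).

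Among the 132 listed genes with a mean log2 CPM of at least 1, those nearest to Tfap2c and to each keratin over the 4 libraries were found by the Euclidean distance of centred log2 CPM. Tfap2c lay nearest to the frizzled receptor gene Fzd9 (0.15) and to Reck (0.15), Krt8 to Plec, which encodes the keratin linker plectin (0.09), and to Ccn2 (0.23), and Krt18 to Lrp5 (0.05) and to Pou5f1 (0.13). Krt19 lay nearest to Cdkn1c (0.17) and Tead3 (0.23), and Krt7 to Rhox9 (0.22) and Evpl (0.29). With 4 libraries these distances only describe which levels ran alike.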

How the data were processed

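Poly(A) RNA of 2 Drosha knockout and 2 wild-type libraries was sequenced with a reverse-stranded TruSeq protocol, per the labels. Each library has a deposited table of raw counts for Ensembl genes. Per the submitters' processing notes, the authors used STAR 2.4.2a, featureCounts 1.4.5-p1 and build mm10. Which annotation release was counted and how reads with several matches were handled is not given in the sources used here.

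Symbols were matched for 42462 of 43629 identifiers (97.3%), and coordinates, exon lengths and transcript GC content came from GENCODE M21 (mm10), which may differ from the annotation counted on. Counts were tested across all genes with edgeR 4.0.16 in R 4.3.3 (TMM scaling, factors 1.055, 1.049, 0.995 and 0.908 for KO1, KO2, WT1 and WT2, expression filter with minimum count 10 and total 15, quasi-likelihood fit of group alone, Benjamini-Hochberg threshold 0.05). SE is the fold change over the root of F. Ratios of 1 library over 1 library used a prior count of 2 and no test. GC and length trends were lowess curves (span 0.3) of each library against the mean of the libraries, entered as offsets. Alternatives were DESeq2 1.42.0, other scalings, no filter, a replicate block, summed knockouts and each library left out. The edgeR script was first tested on simulated counts.

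The 10 genes and all lists were chosen with earlier results of these data known. Named genes were the 10, up to 2 raised and 2 lowered called members of each list (else the smallest p), and the 2 nearest listed genes of Tfap2c and each keratin. Replicate numbers 1 and 2 are not stated to pair libraries. Python 3.11.15 with pandas 2.3.3 made the tables and matplotlib 3.10.9 the plots.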

Additional observations from a re-analysis of the deposited data

How the results depend on the processing

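The fit with all 4 libraries and group alone called 927 genes, 1 of the 10 genes examined (Tfap2c) and 14 genes of the wider lists. No gene was called in edgeR with upper-quartile scaling, library totals alone, GC and length trends removed, these trends removed within a replicate block, or the knockouts summed as 1 sample (0 in all 3 counts each), with 6267, 6116, 4300, 3227 and 1888 genes below 0.05 before adjustment. For all genes, the list genes and single genes, summing was chosen after seeing the data. Library totals alone moved the median log2 fold change of all genes to 0.13, against -0.02 with TMM. Without a filter on low counts 2663 genes and 45 list genes were called. DESeq2 called 3757 genes, 2 of the 10 (Tfap2c and Krt19) and 55 list genes. The fit with a replicate block called 1929 genes, 1 of the 10 and 41 list genes, and same-numbered libraries had a correlation of deviations of 0.0461. Leaving out each library gave 0 to 13658 genes, 0 to 9 of the 10, and 0 to 146 list genes, with 0 genes without KO1 (1760 at an unadjusted p under 0.05), 22 without KO2, 13658 without WT1 and 12089 without WT2. Tfap2c stayed between 0.83 and 1.23 on the log2 scale under 14 alternatives, passing in 6 of the 13 with a test. Those 6 include the fits without WT1 and without WT2, which called most genes. Fitted values changed sign for Krt8 (-0.18 with GC and length trends removed, -0.051 with these trends removed within a replicate block), Ascl2 (-0.41 with trends removed, -0.24 to 2.74 with a library left out), Wnt7b (-0.022 to 4.22 with a library left out) and Tead4 (-0.55 to 0.36 with a library left out). The cause was not tested. Depth limits Gata3, at 1 to 5 counts per library.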

Other observations

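Krt42 and Krt17, other type I keratin genes of chromosome 11 chosen after their values were seen, ran like Krt19. Krt12, of the same type and chromosome, had a log2 ratio of WT2 over WT1 of -0.35, against -1.38 for Krt19. It rested on 2 and 1 counts in WT1 and WT2. Krt42 had 40.1 and 38.8 CPM in KO1 and KO2, against 19.1 and 3.72 CPM in WT1 and WT2, and its log2 fold change of 1.79 ± 0.79 did not pass (edgeR adjusted p = 0.180). Krt17, a keratin of stressed and basal epithelia, had 18.5 and 17.4 CPM in the knockouts, against 7.39 and 2.69 CPM in WT1 and WT2 (1.83 ± 0.52, edgeR adjusted p = 0.0899). For both genes the groups did not overlap and WT2 was the lowest library.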
